A study of Mus musculus with 4 samples.

Results

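The heat shock chaperones described here are the 10 genes *Hspa1a*, *Hspa1b*, *Hspa8*, *Hsp90aa1*, *Hsp90ab1*, *Hsph1*, *Dnaja1*, *Dnajb1*, *Hspb1* and *Hspe1*, taken by name from the 24322 gene symbols of the series. All 10 were found in each library and passed the filter on low values. In the sorted retinal cells, 0 of the 10 passed the test between *Rax* iCKO and control mice. This held with or without the pairing of the mice as a term in the fit. The stress-inducible *Hspa1a*, *Hspa1b* and *Dnajb1* were 3.71, 4.36 and 1.69 times higher in mean FPKM in 1 pair of mice than in the other. Each pair held 1 mouse of each genotype.

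Chaperones are proteins that bind other proteins while these fold, unfold or come apart. Their genes fall into families with fixed roles: HSP70 proteins (*Hspa* genes) hold unfolded stretches in a cycle driven by ATP, J-domain proteins (*Dnaj* genes) hand them substrates, HSP110 exchanges their nucleotide, HSP90 proteins act on kinases and receptors that are nearly folded, small heat shock proteins hold aggregates apart, and HSP10 caps the mitochondrial HSP60 chamber. Some members, such as *Hspa8*, are made in nearly all cells, whereas *Hspa1a*, *Hspa1b* and *Dnajb1* are switched on within minutes by heat and other protein-damaging stress through heat shock factor 1, which binds a repeated element near their starts. Enzymatic dissociation of a tissue at body temperature is a known inducer of the same genes, so their level in sorted cells is often read as a view of handling stress.

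The libraries were RNA-seq of cells positive for mTFP (a teal fluorescent protein), sorted by FACS from the retinas of 4 mice on a 129S6 background, 1 library per mouse. The 2 control mice, numbered 7984 and 3911, were Raxflox/WT, and the 2 *Rax* iCKO mice, numbered 7983 and 3914, were Raxflox/flox. *Rax* encodes a homeodomain transcription factor of retinal progenitors and Müller glia. All 4 mice, the controls included, also carried *Rlbp1-CreERT2*, a tamoxifen-activated Cre driven by a promoter fragment of a Müller glial gene, and R26-CAG-LoxP-mTFP1, a reporter that Cre switches on. Tamoxifen was given at P4 and the retinas were taken at P14 in all 4. Control cells thus had 1 floxed *Rax* allele exposed to Cre. Per the study, the same Cre line also acts in the pigment epithelium. Whole retinas were dissociated with papain at body temperature, treated with DNase and sorted at once, and no library of undissociated retina was analysed here, so a rise caused by the dissociation shared by all 4 libraries cannot be told apart from the level in the tissue.

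Values are FPKM, fragments on a gene per kilobase of its exons, scaled to the mapped fragments of each library. They summed to between 492728 and 616277 in a library, and between 7870 and 8720 symbols were listed at 0. The files hold no read counts. The steps between low values gave an estimate of between 9250000 and 12660000 mapped reads per library. *Rax* itself was at 189 and 181 FPKM in the control mice 7984 and 3911 and at 111 and 98.4 FPKM in the *Rax* iCKO mice 7983 and 3914, so the targeted gene followed the labels. Müller glial markers were high in all 4 libraries, with *Rlbp1* between 1292 and 2616 FPKM and *Apoe* between 3901 and 5041 FPKM. Markers of other cells were present too: the 6 bipolar cell markers summed to between 2848 and 7646 FPKM, the 10 rod markers to between 939 and 1621, and the 8 microglial markers to between 11.8 and 79.5. The 7 ganglion cell markers summed to between 6.14 and 15.1 FPKM, with the defining marker *Pou4f1* at 0 in all 4 libraries. *Xist*, expressed from the inactive X chromosome of females, was at 24.5 and 21.2 FPKM in the control mice 7984 and 3911 and under 1 FPKM in both *Rax* iCKO mice, so both genotypes also differed in sex-linked expression. The Y-linked gene *Eif2s3y* was at 43.7 FPKM in *Rax* iCKO mouse 7983 and at 0 in the other 3, *Rax* iCKO mouse 3914 included. In bulk libraries such as these, fewer cells of a type and less RNA per cell cannot be told apart.

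The mouse numbers fall into 2 runs, 7983 with 7984 and 3911 with 3914, each with 1 *Rax* iCKO and 1 control mouse. What the mice of a run share (litter, date of the sort, library batch) is not named in the sources used here, so the runs are called the 79xx mice and the 39xx mice and nothing more. The split does not coincide with genotype. Heat shock genes can respond to handling, but whether handling differed between the runs is not given and was not tested. Both comparisons are given below, on the scale of log2(FPKM + 1), from limma fits across the 12363 genes whose mean FPKM reached 1, with Benjamini-Hochberg adjustment. With 2 mice against 2, an exact two-sided permutation test of 1 gene cannot give a p below 0.333.

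Heat shock factors act through a repeated element in promoters, and sequences are shown because *Hspa1a* and *Hspa1b*, which differed most between libraries, are textbook targets of these factors. RefSeq entries were found for 7 of the 10 members, and those of *Hspa8*, *Hsp90aa1* and *Hsp90ab1* were not used here. The 250 bases before each start were searched on both strands for 2 facing units of the heat shock element, GAANNTTC or TTCNNGAA, and for 3 such units in alternation, which also hold the first motif. Some members have several starts, 11 in all, and the most upstream one is used for the sequences and positions below. The pair was present in 7 of the 11 windows, against 12.8% of all 32851 RefSeq windows of that length, and in 6 of the 7 members, against 14.5% of 27025 genes. *Dnaja1* held it in 1 of its 3 windows. The 3 units were present in 1 window, that of *Hspe1*, against 0.466% of all windows. Below are the whole window of *Hspa1a* and the 30 bases around the element in the other members, with the element in capitals and everything else in lower case, 5′ to 3′ along the strand of the gene, from RefSeq on GRCm38.p6.
*Hspa1a* (chr17:34972157-34972406, minus strand): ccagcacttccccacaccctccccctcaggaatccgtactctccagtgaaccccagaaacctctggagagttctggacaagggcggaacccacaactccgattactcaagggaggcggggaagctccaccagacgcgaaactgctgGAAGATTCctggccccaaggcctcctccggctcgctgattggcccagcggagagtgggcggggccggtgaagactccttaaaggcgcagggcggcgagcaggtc
*Hspa1b* (chr17:34959324-34959353, minus strand): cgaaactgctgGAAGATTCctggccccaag
*Hsph1* (chr5:149636351-149636380, minus strand): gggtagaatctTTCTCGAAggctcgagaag
*Dnaja1* (chr4:40722333-40722362, plus strand): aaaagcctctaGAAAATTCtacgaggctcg
*Hspb1* (chr5:135887801-135887830, plus strand): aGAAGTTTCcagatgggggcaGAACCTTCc
*Hspe1* (chr1:55088053-55088082, plus strand): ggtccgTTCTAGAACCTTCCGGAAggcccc

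The element began 104 bases before the start in both *Hspa1a* and *Hspa1b*, and their 250-base windows differed at 3 positions only, C-207T, T-204C and T-2G, counted back from the base next to the start with the base of *Hspa1a* first. The pair lie 10120 bases apart on chromosome 17, *Hspa1b* at 34956429-34959238 and *Hspa1a* at 34969359-34972156, both on the minus strand of GRCm38.p6. *Hspb1* held 2 copies, 117 and 97 bases before its start. The upstream window of *Hspe1* lies within the RefSeq span of the gene of its partner, *Hspd1* (HSP60), on the opposite strand. The spans of these genes overlap at their 5′ ends. *Dnajb1* held neither form in its 2 windows, which says only that these letters are not there. TATAAA was found in 0 of the 11 windows, against 12.4% of all windows.

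The level of the members ranged over 3 orders of magnitude, and 1 gene made up most of it. Since FPKM is per length, levels can be set side by side between genes, within the limit of sequence shared with other transcripts. Of the 100-base windows of a transcript, 47.55% in *Hsp90aa1*, 20.4% in *Hspe1* and 14.8% in *Dnaja1* also occur in other annotated transcripts. The shares of *Hspa1b*, *Hspa8* and *Hspb1* are given below. *Hspa8*, the HSP70 made in all cells, held between 54.9% and 63.1% of the summed FPKM of the 10 genes, and ranked 24th by mean FPKM among the genes tested. *Hsp90ab1*, the constitutive HSP90, followed with a mean of 448 FPKM and *Hsp90aa1*, its stress-responsive paralog, with 195. *Dnaja1* and *Hspe1* had means of 111 and 109, and their ranges over the libraries overlapped. *Hsph1*, *Dnajb1*, *Hspa1b* and *Hspa1a* had means of 44.5, 41.7, 35.2 and 14.7, and each overlapped its neighbour in this order. *Hspb1* (HSP25) was last, at 1.28. Together the members took between 0.438% and 0.472% of a library's summed FPKM.

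**Figure D1:**
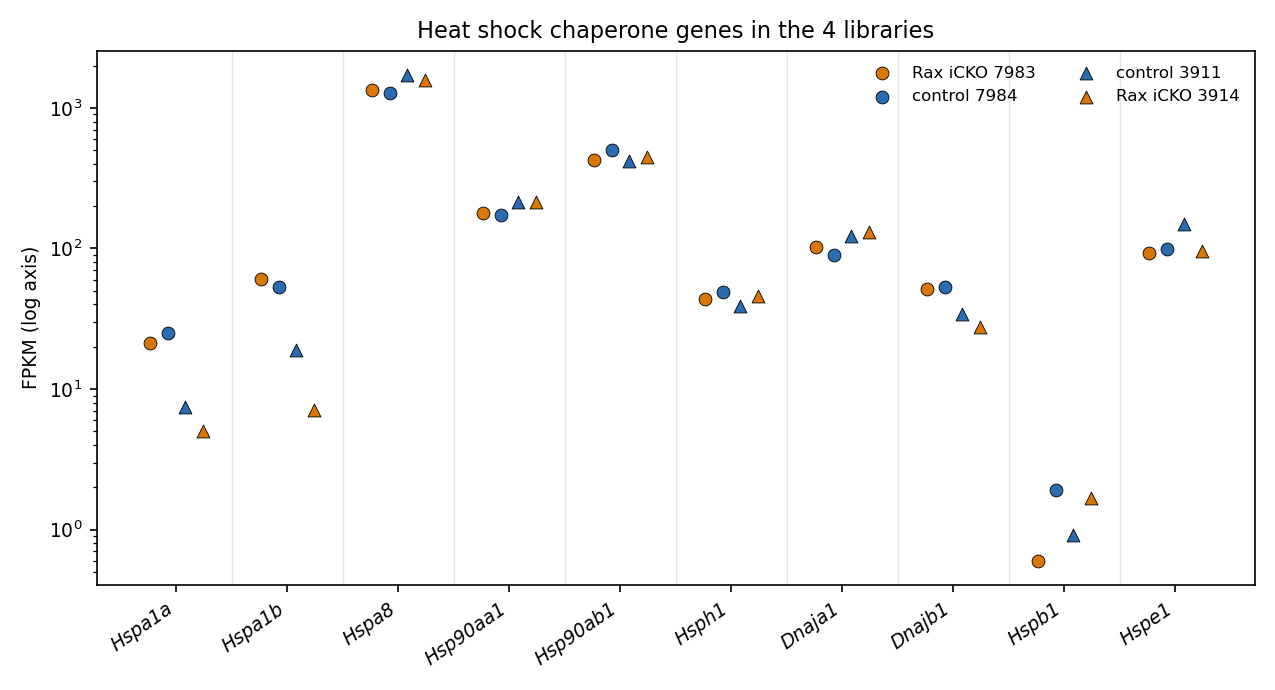
FPKM on a log axis of the 10 genes, 1 point per library, with controls in blue, *Rax* iCKO in orange, 79xx mice as circles and 39xx mice as triangles. For *Hspa1a*, *Hspa1b* and *Dnajb1* both circles lie above both triangles whatever their colour, for example 61.0 and 53.5 against 19.1 and 7.15 FPKM for *Hspa1b*.

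*Hspa1a* and *Hspa1b* encode nearly the same protein, the stress-inducible HSP70. *Hspa1a* was at 21.3 FPKM in mouse 7983 (*Rax* iCKO) and 25.1 in mouse 7984 (control), against 7.46 in mouse 3911 (control) and 5.04 in mouse 3914 (*Rax* iCKO). *Hspa1b* stood at 61.0 (mouse 7983) and 53.5 FPKM (mouse 7984) in the 79xx mice, against 19.1 (mouse 3911) and 7.15 FPKM (mouse 3914) in the 39xx mice. For both genes the 79xx mice were high, the 39xx mice were low, and the genotypes overlapped. Between genotypes, *Rax* iCKO minus control was -0.36 on the log2 scale for *Hspa1a* (SE 0.75, 95% interval -2.18 to 1.46, limma adjusted p = 0.9999) and -0.56 for *Hspa1b* (SE 0.96, 95% interval -2.89 to 1.78, adjusted p = 0.9999). These intervals are wide because the spread within a genotype includes the difference between runs. With run as a term the intervals were -0.74 to 0.03 for *Hspa1a* and -1.12 to 0.0065 for *Hspa1b* (limma adjusted p = 0.359 and 0.324). Between runs, 39xx minus 79xx mice was -1.75 for *Hspa1a* (SE 0.18, limma adjusted p = 8.1e-05) and -2.18 for *Hspa1b* (SE 0.26, adjusted p = 2.7e-04), a mean FPKM 3.71 and 4.36 times higher in the 79xx mice. Among all 12363 genes, *Hspa1b* ranked 55th and *Hspa1a* 87th for being lower in the 39xx mice.

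The difference held within each genotype. *Hspa1a* was lower in mouse 3911 than in mouse 7984 by a log2 difference of -1.62 (control), and lower in mouse 3914 than in mouse 7983 by -1.88 (*Rax* iCKO). For *Hspa1b* these were -1.44 and -2.93. Within runs, *Hspa1b* differed in sign between genotypes, 0.19 (*Rax* iCKO minus control) in the 79xx mice and -1.30 in the 39xx mice, each from 1 mouse against 1, with no test of that difference. In 100-base windows, 49.9% of the *Hspa1b* transcript was also found in *Hspa1a*, so the split of reads between the pair is uncertain. The sum of both does not depend on that split: it was 82.3 and 78.6 FPKM in mice 7983 and 7984 and 26.6 and 12.2 in mice 3911 and 3914, -2.09 between runs (SE 0.21, limma adjusted p = 8.8e-05) and -0.50 between genotypes (SE 0.90, adjusted p = 0.9999). The sum rests on many reads, since *Hspa1a* alone had an estimated 878, 554, 191 and 129 reads in mice 7984, 7983, 3911 and 3914.

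*Hspa8* is the constitutive HSP70. It stood at 1345 (mouse 7983) and 1273 FPKM (mouse 7984) in the 79xx mice, against 1713 (mouse 3911) and 1575 FPKM (mouse 3914) in the 39xx mice. Both 39xx mice were above both 79xx mice, and the genotypes overlapped. The log2 difference was 0.33 between runs (SE 0.17, limma adjusted p = 0.193) and -0.02 between genotypes (SE 0.37, adjusted p = 0.9999), neither past 0.05. Its values are uncertain in another way, since 62.8% of its 100-base windows occur in other annotated transcripts, most of them in the pseudogene *Gm15459*, which was not analysed here. Within a library, *Hspa1a* and *Hspa1b* together came to 6.12% and 6.17% of *Hspa8* in mice 7983 and 7984, and to 1.55% and 0.774% in mice 3911 and 3914. A ratio within a library does not depend on how that library was scaled, and here too the runs were apart and the genotypes overlapped. *Hsph1* (HSP110), the nucleotide exchange factor of HSP70, was at 43.9, 49.2, 39.2 and 45.7 FPKM in mice 7983, 7984, 3911 and 3914. It overlapped in both comparisons, with a log2 difference of 0.03 between genotypes (SE 0.21) and -0.13 between runs (SE 0.15, limma adjusted p = 0.567), although heat is known to induce it together with the inducible HSP70.

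The 2 J-domain members lay on opposite sides between runs. *Dnajb1* (HSP40), a partner of HSP70 that heat induces, stood at 51.1 (mouse 7983) and 53.5 FPKM (mouse 7984) in the 79xx mice, against 34.2 (mouse 3911) and 27.8 FPKM (mouse 3914) in the 39xx mice. The 79xx mice were high and the 39xx mice low in both genotypes, -0.63 in control and -0.85 in *Rax* iCKO mice on the log2 scale. The difference between runs was -0.74 (SE 0.14, limma adjusted p = 0.0055), which passed 0.05, but without genotype as a term the adjusted p was 0.0664. Between genotypes *Dnajb1* differed by -0.18 (SE 0.36, adjusted p = 0.9999). *Dnaja1*, made in most cells and also known as a partner of HSP70, was at 102, 90.1, 123 and 131 FPKM in mice 7983, 7984, 3911 and 3914. Here the 39xx mice were the higher ones, by 0.40 on the log2 scale (SE 0.13, limma adjusted p = 0.0555), and the genotypes overlapped. It passed with a minimum mean FPKM of 5 (adjusted p = 0.0488) and with equal medians (0.0214). *Dnajb1* over *Dnaja1* was 0.501 and 0.594 in mice 7983 and 7984 against 0.278 and 0.213 in mice 3911 and 3914.

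**Figure D2:**
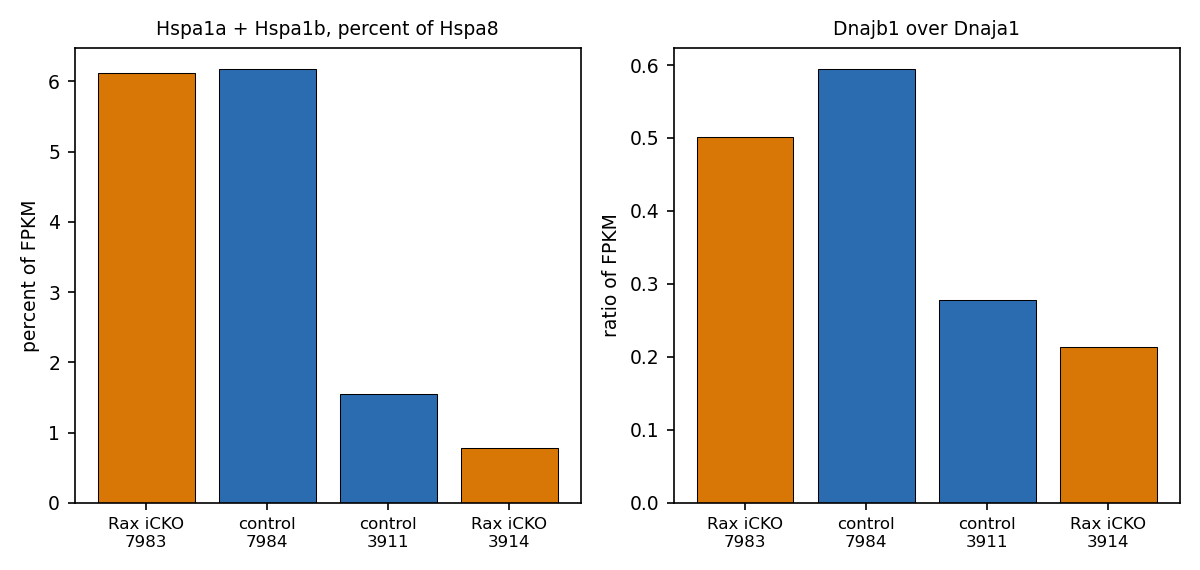
Left, the summed FPKM of *Hspa1a* and *Hspa1b* as a percent of the FPKM of *Hspa8*; right, the FPKM of *Dnajb1* over that of *Dnaja1*; 1 bar per library, controls in blue and *Rax* iCKO in orange, no error since each bar is 1 mouse. Both 79xx mice stand above both 39xx mice in each panel, at 6.12% and 6.17% against 1.55% and 0.774% on the left.

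The HSP90 genes, the small heat shock protein and HSP10 did not pass 0.05 in either comparison as fitted. *Hsp90aa1* was at 179, 173, 213 and 214 FPKM in mice 7983, 7984, 3911 and 3914, higher in both 39xx mice by 0.27 on the log2 scale (SE 0.13, limma adjusted p = 0.169). *Hsp90ab1* was at 429, 499, 416 and 448 FPKM in the same order, with overlap in both comparisons. With quantile normalization the difference of *Hsp90aa1* between runs was 0.0079 (limma adjusted p = 0.973), and that of *Hsp90ab1*, -0.10 as reported (adjusted p = 0.671), was -0.44 and passed (adjusted p = 0.0285). *Hspb1*, which in many cells is strongly induced by heat, was at 0.604, 1.90, 0.921 and 1.68 FPKM, an estimated 4, 17, 6 and 11 reads, which is too few to rank these libraries, and 56.3% of its 100-base windows occur in another annotated transcript. *Hspe1* was at 92.9 and 96.2 FPKM in the *Rax* iCKO mice 7983 and 3914 and at 99.5 and 148 in the control mice 7984 and 3911. It was the only 1 of the 10 members whose genotypes did not overlap, with both *Rax* iCKO mice below both controls by a fitted log2 difference of -0.36 (SE 0.26, limma p = 0.216 before adjustment, adjusted p = 0.9999, exact permutation p = 0.333). Control mouse 3911 set most of that difference, which was -0.07 without it.

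Across the members, 0 of 10 passed an adjusted p of 0.05 between *Rax* iCKO and control mice in limma, where 0.0243% of all genes tested did (3 of 12363, *Mir568* higher and *Mir6538* and *Xist* lower). The targeted gene *Rax* was not among these 3. At an unadjusted p under 0.05 the count of members was also 0 of 10, against 2.86% of all genes. The genotypes did not overlap for 1 of 10, against 29.5% of all genes. The median log2 difference of the members was -0.12, beside a median near 0 for all genes, and ran from -0.56 (*Hspa1b*) to 0.13 (*Dnaja1*). Its sign depended on single mice, since the median was 0.093 without control mouse 7984 and 0.0158 without *Rax* iCKO mouse 7983, and leaving out 1 mouse turned the sign of 9 of the 10 members, all but *Hspe1*. The median size of the difference, without its sign, was 0.15 in the members and 0.19 over all genes. The 95% intervals ran from -0.57 to 0.62 for *Hsp90aa1* and from -0.93 to 0.89 for *Hspa8*. With run as a term, which takes the difference between runs out of the error and leans on 1 residual degree of freedom per gene besides the pooled spread, they ran from -0.27 to 0.32 and from -0.39 to 0.35. In that fit 0 of 10 members passed, where 0.574% of all genes did (71 of 12363), and 1 of 10, *Hspe1*, had an unadjusted p under 0.05, where 15.7% of all genes did (*Hspe1* adjusted p = 0.282).

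Between the runs, 3 of 10 members passed an adjusted p of 0.05, all lower in the 39xx mice, against 18.8% of all genes tested (2322, of which 1224 were higher and 1098 lower). The runs did not overlap for 6 of 10 members, 3 higher (*Hspa8*, *Hsp90aa1* and *Dnaja1*) and 3 lower, against 55.9% of all genes. Against these shares the counts say little of the members as a group, whereas the differences of *Hspa1a* and *Hspa1b* were large: 99.1% and 99.4% of all genes, in that order, had a smaller difference between runs, whichever its sign. For 8 of the 10 members the difference between runs was larger than that between genotypes, as it was for 63.7% of all genes. The fit with genotype and run leaves 1 residual degree of freedom per gene besides the spread pooled over genes, so its p-values lean on that pooling, and they describe these 4 mice.

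**Figure D3:**
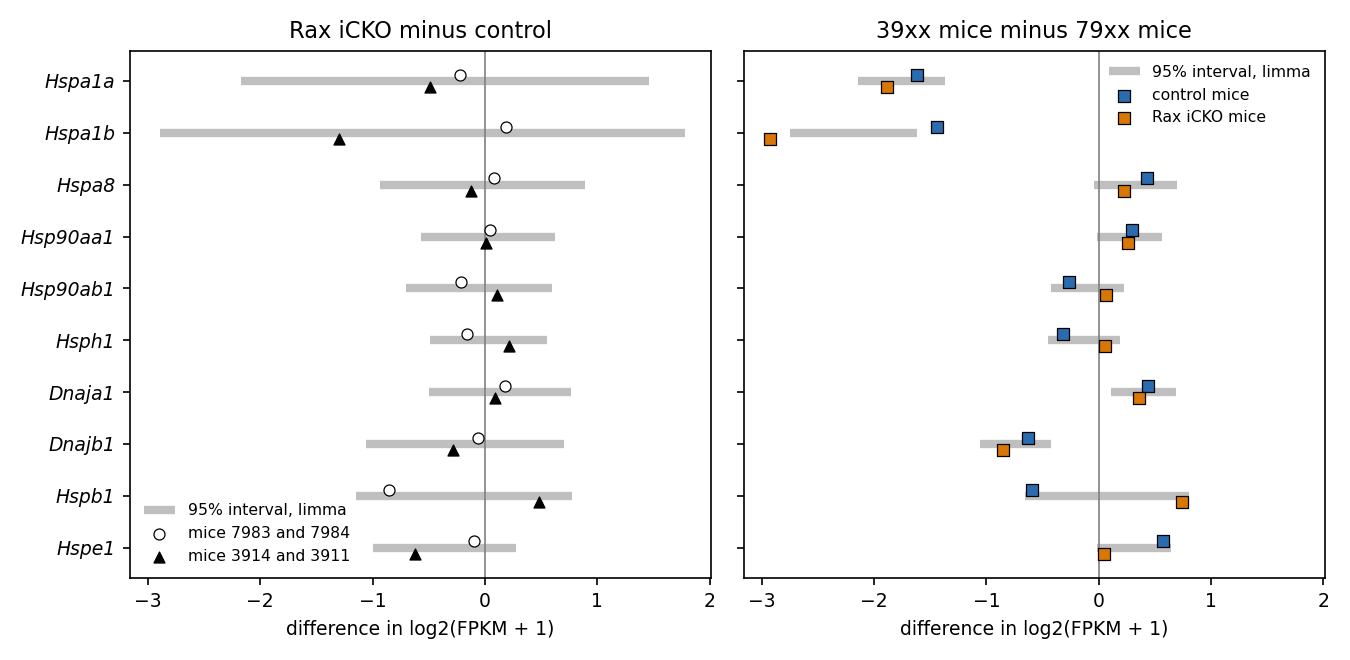
Differences in log2(FPKM + 1) of the 10 members, left *Rax* iCKO minus control with 1 point per run, right 39xx minus 79xx mice with 1 point per genotype; grey bars are the 95% intervals of the limma fits. On the left all bars cross 0, and on the right those of *Hspa1a*, *Hspa1b* and *Dnajb1* lie below it, with -1.75, -2.18 and -0.74 as their centres, and that of *Dnaja1* above it, although its adjusted p was 0.0555.

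Marker genes of retinal cell types also differed between runs, and their part in these differences was not tested. The bipolar cell markers summed to 3880 and 2848 FPKM in mice 7983 and 7984 and to 7646 and 6219 in mice 3911 and 3914, most of it *Pcp2*, a bipolar cell gene, at between 2071 and 6515. Without *Pcp2* the other 5 summed to 1153 and 777 against 1131 and 1373, so the runs overlapped, and of these 5 only *Cabp5* passed, as higher in the 39xx mice. The 8 vascular markers summed to 414 and 496 FPKM in the 79xx mice against 246 and 261 in the 39xx mice, nearly all of it *Kdr*, which encodes a VEGF receptor. The defining endothelial markers *Pecam1* and *Cdh5* were under 1 FPKM in all 4 libraries. The 8 microglial markers summed to 79.5 and 44.6 in the 79xx mice and to 46.0 and 11.8 in the 39xx mice. Singly, all 8 had a log2 difference below 0 between runs, with a median of -0.92. The runs did not overlap for 4 of the 8, against 55.9% of all genes, and 3 passed as lower, against 18.8%. Of the 10 rod markers 9 were below 0 between runs, with a median of -0.21, and 3 passed as lower. The 12 Müller glial markers summed to 10860 and 15922 against 12154 and 11003, a sum set mostly by a few abundant genes such as *Apoe*, which overlapped between runs. Singly, all 12 had a log2 difference below 0 between runs, with a median of -0.35. Both 39xx mice lay below both 79xx mice for 7 of them, where 55.9% of all genes did not overlap in either direction. The test was passed as lower by 4 of the 12, *Sox2*, *Kcnj10*, *Slc1a3* and *Sox9*, where 18.8% of all genes passed in either direction. Transcript length moved with the run as well: the median log2 difference between runs was 0.24 over the 3970 genes with the shortest transcripts and -0.20 over the 3968 with the longest. Length moved with genotype too: *Rax* iCKO minus control had medians of -0.12 and 0.11 over these genes, in the same order. The transcripts of *Hspa1a* and *Hspa1b*, at 2967 and 2803 bases, lie among the 3971 of middle length, whose median between runs was -0.01. With a GC content of 58.95% and 58.12%, they lie among the 3970 transcripts richest in GC, whose median between runs was -0.09. The part of length and GC content was not tested. The estimated depth was 9410000 and 12660000 reads in the 79xx mice against 9250000 and 9280000 in the 39xx mice, so both 79xx libraries were the deeper ones, mouse 7983 by little, and the part of depth was not tested either.

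Other chaperone genes were read from lists by family. Between genotypes, 0 genes of any of these lists passed an adjusted p of 0.05 in limma, and outside the immediate early genes 0 had an unadjusted p under 0.05. With run as a term 3 of their 94 genes passed, all lower in *Rax* iCKO mice (*Serpinh1*, *Ier3* and *Zfp36*, given below), against 0.574% of all genes, of which 24 were higher and 47 lower. The 9 chaperonins, HSP60 (*Hspd1*) and the subunits of the TRiC ring that folds actin and tubulin, were all higher in both 39xx than in both 79xx mice, with a median log2 difference of 0.40. The runs did not overlap for 55.9% of all genes, and 4 of the 9 passed the test, against 18.8% of all genes. *Cct5* was at 186 and 202 FPKM in mice 7983 and 7984 and at 313 and 296 in mice 3911 and 3914, a difference of 0.65 (SE 0.14, limma adjusted p = 0.008). *Cct7*, *Cct4* and *Cct8* differed by 0.55, 0.55 and 0.52. All 9 stayed above 0 under the alternatives tried, but their calls depended on the setting: 7 of 9 passed with equal medians, 1 with no filter, and 0 with quantile normalization (median 0.19), with no variance trend or with no genotype term. Of 9 tested genes of other HSP70 and HSP90 proteins, 0 passed between runs (*Hspa4* and *Hspa9* were at an unadjusted p under 0.05, both higher), and *Hspa9*, the mitochondrial HSP70, was at 62.7, 54.5, 75.4 and 80.3 FPKM in mice 7983, 7984, 3911 and 3914. Of the 10 other J-domain genes 1 passed as higher, *Dnajb6* at 0.57 (SE 0.15, limma adjusted p = 0.021), and 1 as lower, *Dnajb14* at -0.58. Of 18 co-chaperones, which include the HSP90 partners *Stip1* and *Fkbp4*, 2 passed as higher, *Bag1* (a nucleotide exchange factor of HSP70) at 0.68 and *Cdc37* (which brings kinases to HSP90) at 0.58, and 0 as lower. *Cryab*, the small heat shock protein most abundant here, was at 232, 356, 307 and 282 FPKM, below both controls in both *Rax* iCKO mice by -0.37 (SE 0.25, limma adjusted p = 0.9999).

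Genes that respond to heat or to cell stress but are not chaperones of the cytosol did not all lie on one side between runs. *Ubb*, a polyubiquitin gene, was at 1864 and 2016 FPKM in mice 7983 and 7984 and at 3422 and 2639 in mice 3911 and 3914, higher in the 39xx mice by 0.63 on the log2 scale (SE 0.19, limma adjusted p = 0.034). *Serpinh1*, the collagen chaperone HSP47, was at 26.8, 60.05, 29.8 and 18.9 FPKM, with a log2 difference of -0.73 between runs (SE 0.16, limma adjusted p = 0.011). Mouse 7984 lay far above the rest, and the runs overlapped. Both *Rax* iCKO mice lay below both controls, a difference of -0.88 with an adjusted p of 0.9999 in limma without run and 0.0348 with run as a term. Of 18 chaperones and response genes of the endoplasmic reticulum, 1 passed as higher between runs, the transcription factor *Atf4* at 0.48, and 1 as lower, *Hyou1* (an HSP110 of that compartment) at -1.02, fewer than the 18.8% of all genes. *Hspa5* (BiP), its HSP70, was at 345, 351, 368 and 325 FPKM. Immediate early genes are also known to be induced by dissociation. Of 20 tested, 1 passed as higher in the 39xx mice, *Gadd45g*, and 4 as lower, the transcription factor genes *Jun*, *Jund*, *Fosb* and *Egr1*, near the 18.8% of all genes. *Egr1*, the most abundant of these 4, was at 480 and 575 FPKM in mice 7983 and 7984 and at 393 and 316 in mice 3911 and 3914, a log2 difference of -0.58 (SE 0.14, limma adjusted p = 0.017). Between genotypes, 13 of these 20 lay below both controls in both *Rax* iCKO mice, where 29.5% of all genes did not overlap in either direction, and their median difference was -0.44. An unadjusted p under 0.05 was reached by 7 of the 20, against 2.86% of all genes, and 0 passed adjustment. With run as a term 12 of the 20 had an unadjusted p under 0.05, against 15.7% of all genes, and 2 passed adjustment, against 0.574%. *Ier3*, at 29.6 and 24.7 FPKM in the control mice 7984 and 3911 and 15.6 and 8.81 in the *Rax* iCKO mice 7983 and 3914, had the largest such difference, -1.14 (SE 0.31, limma adjusted p = 0.9999), and with run as a term its adjusted p was 0.0165. *Zfp36*, which encodes a protein that destabilises mRNA, was at 67.6 and 55.8 FPKM in these controls and 37.5 and 24.0 in these *Rax* iCKO mice, a difference of -1.01 with an adjusted p of 0.9999 in limma without run and 0.0113 with it. The 10 rod markers summed to 1094 and 939 FPKM in the same *Rax* iCKO mice against 1621 and 1560 in the controls, and 3 of them passed as lower with run as a term. Of the 12 Müller glial markers 11 had a difference below 0 between genotypes, with a median of -0.31, and of the 6 bipolar cell markers 5 were above 0, with a median of 0.34, but 0 of either list passed adjustment, with or without run. The part of these markers in the differences between genotypes was not tested. *Fos* was at between 874 and 1269 FPKM in all 4 libraries.

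**Figure D4:**
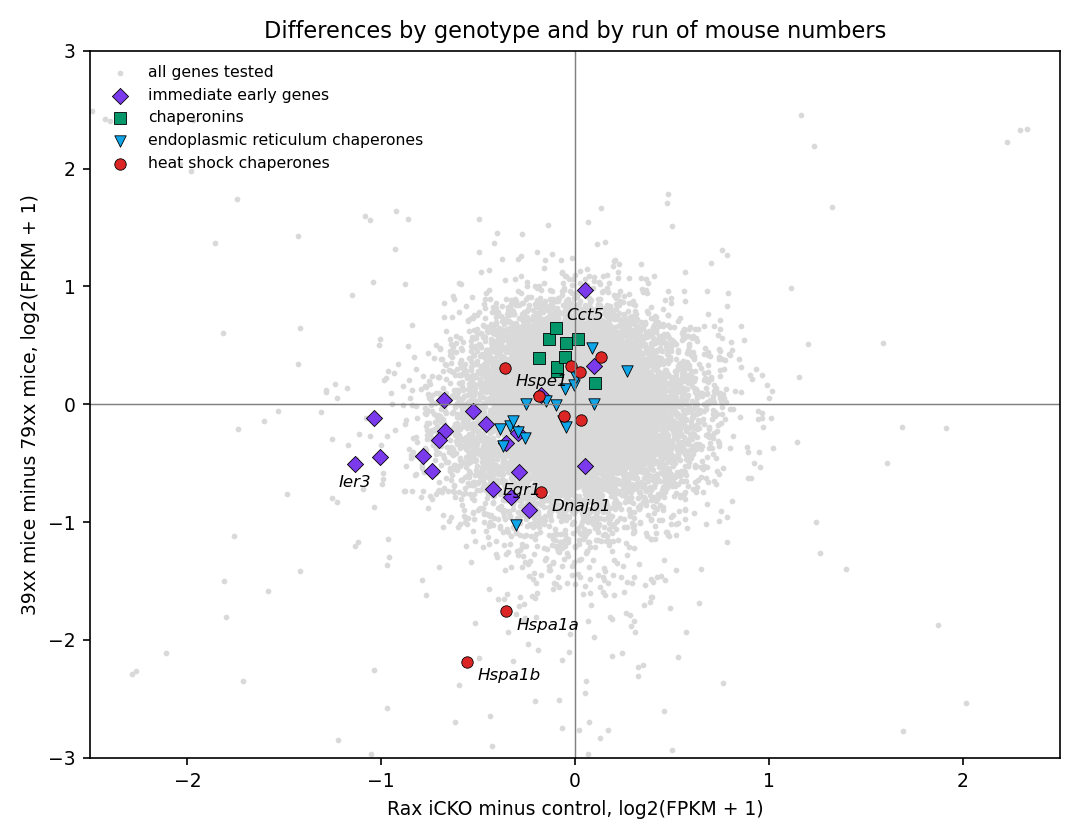
Each gene's difference between genotypes (horizontal) against that between runs (vertical), in log2(FPKM + 1), with all genes tested in grey and 4 lists in colour; 41 genes lie outside the axes. *Hspa1a* and *Hspa1b* lie far down, and left of 0 by less than their errors in the fit without run (SE 0.75 and 0.96). With run as a term these errors were 0.18 and 0.26, smaller than the differences of -0.36 and -0.56. The chaperonins lie above 0, and the immediate early genes spread to the left as far as *Ier3* at -1.14.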

How the data were processed

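TopHat with Bowtie2 and SAMtools aligned the reads (single-end) to mm10, and the authors deposited FPKM, 1 value for each gene symbol in each library, from Cufflinks per the study's methods or Cuffdiff per the submitters' processing notes. Tool versions and the RNA kit also differ between these sources. FPKM were used as deposited, without further scaling. Whether counting used the strand is not given in the sources used here.

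Differences were fitted with limma 3.58.1 in R 4.3.3 (lmFit, eBayes with a trend) on log2(FPKM + 1), with a pseudocount of 1, over the 12363 genes whose mean FPKM reached 1. The genotype fit had no covariate, and the fit for the run of mouse numbers had genotype as a term. Fold changes of low genes are understated on this scale. Permutation tests used scipy 1.17.1. The fit was tested on simulated data. Mapped reads were estimated from values that were whole multiples of 1 read (between 74.3% and 77.8% of low values, within 0.1 of a read), in genes with 1 GENCODE transcript of at least 600 bases, with 200 bases taken off; no count test was run on these estimates. Transcript lengths, matched for 96.3% of genes, came from the same annotation. Alternatives were other filters, pseudocounts and scalings, no variance trend, a block by run, and leaving out each mouse.

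The members, the gene lists and the comparison of runs were chosen with earlier results of these data known. Genes named are the 10 members, *Rax*, from each other list up to 4 with the largest mean FPKM and up to 4 with the largest difference among genes whose genotypes do not overlap, and of the markers the 2 with the largest mean FPKM. *Pou4f1*, *Hspd1*, *Xist*, *Eif2s3y*, *Mir568*, *Mir6538*, *Hspa4*, *Cct4*, *Dnajb14*, *Bag1*, *Cdc37*, *Atf4*, *Hyou1*, *Gadd45g*, *Jun*, *Jund*, *Fosb*, *Sox2*, *Kcnj10*, *Slc1a3*, *Sox9*, *Pecam1* and *Cdh5* fall outside that rule and were named after their values were seen. The result of 1 gene of the heat-inducible list is not reported here.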

Additional observations from a re-analysis of the deposited data

How the results depend on the processing

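Between genotypes, 0 members passed an adjusted p of 0.05 under all 11 alternatives (of 9 tested with a minimum mean FPKM of 5, which drops *Hspb1*, and of 10 otherwise), whereas the number of genes passing was 3 as reported, 0 with no filter, 0 with a minimum mean FPKM of 5, 6 with equal medians, 71 with run as a block (24 higher and 47 lower; each run holds 1 mouse of each genotype, so this is the paired fit), and between 15 and 20 when 1 mouse was left out. The median difference of the members, -0.12 as reported, ran from -0.16 to 0.093 over the mice left out. The direction of single members depended on the mice: leaving out 1 gave lowest and highest values of -1.30 and 0.59 for *Hspa1a*, -2.02 and 0.91 for *Hspa1b*, -0.23 and 0.19 for *Hspa8*, -0.12 and 0.17 for *Hsp90aa1*, -0.19 and 0.0753 for *Hsp90ab1*, -0.13 and 0.19 for *Hsph1*, -0.0868 and 0.35 for *Dnaja1*, -0.60 and 0.25 for *Dnajb1*, and -0.56 and 0.18 for *Hspb1*. Quantile normalization turned *Hspa8* to 0.22 and *Hsp90ab1* to 0.16. *Hspe1* stayed below 0 in all 11.

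Between runs, 2322 genes passed as reported, 746 with no filter, 936 with no variance trend, and 346 with no genotype term (chosen after seeing the data); the cause was not tested. Equal medians gave 1946 higher and 1005 lower, against 1224 and 1098. *Hspa1a* and *Hspa1b* passed under the 8 alternatives run for this comparison, the sum of both (also chosen after seeing the data) included; leaving out a mouse leaves this fit no residual degree of freedom, so it was not run. *Dnajb1* had an adjusted p of 0.0664 with no genotype term, *Dnaja1* one of 0.0488 with that minimum and 0.0214 with equal medians, and *Hsp90ab1* one of 0.0285 with quantile normalization. What depth limits here is *Hspb1*.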
